A study of Mus musculus with 12 samples.

Results

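The genes described here are 10 predicted genes in a pair of duplicated regions of the mouse genome, 5 on chromosome 14 and 5 on chromosome 4, among the 25093 genes counted in the series. They were chosen by their counts in these same libraries, as predicted genes of 1 interval on each chromosome that differed between *Gli3* genotypes, and their positions are given below. The genotype differences of these genes are therefore given as a description, with no test. One of them, *Gm27222*, starts just before the chromosome 14 interval. Quiescent satellite cells (QSCs), the resting stem cells of skeletal muscle, were sorted from uninjured mice aged 3 to 4 months as cells positive for α7-INTEGRIN and CD34 and negative for CD31, CD45, SCA1 and CD11b. Both groups carried *Pax7*-CreERT2, which drives recombination in satellite cells, and an R26R-YFP reporter, and both received tamoxifen. The 3 control libraries came from *Gli3*+/+ mice and the 3 Gli3-cKO libraries from *Gli3* fl/fl mice, in which an exon of *Gli3* is deleted in satellite cells. Each QSC library combined several mice, which were of a mixed 129SV and C57BL/6 background. Activated satellite cells were also sequenced but are not analysed here.

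A gene whose symbol starts with Gm is a predicted gene model, named before any function was known. Duplicated regions hold several near-identical copies of such models, and a short read from one copy can fit the others equally well. A program that estimates transcript abundance then shares such a read among the copies, so that the value of one copy depends on the values of the rest.

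Positions are those of GRCm38 in GENCODE vM21. On chromosome 14, *Gm27222* (ENSMUSG00000098248.1, 69259146 to 69262037, plus strand) is an antisense gene within an intron of *Slc25a37*, which encodes the mitochondrial iron importer mitoferrin. *Gm27221* (ENSMUSG00000098270.1, 69348897 to 69352259, minus strand) is antisense to exons of *Entpd4*, a nucleotide-hydrolysing enzyme of the Golgi. *Gm16867* (ENSMUSG00000093954.8, 69363504 to 69503362, minus strand) is annotated as protein-coding and overlaps exons of *Entpd4* and of *Gm21451* on the opposite strand. *Gm21451* (ENSMUSG00000094526.1, 69390854 to 69480287, plus strand) is an unprocessed pseudogene. *Gm27177* (ENSMUSG00000098975.7, 69582164 to 69683286, minus strand) is antisense to exons of *Entpd4b*, a copy of *Entpd4*, and of *Loxl2*. *Loxl2* encodes a lysyl oxidase that crosslinks collagen. The library kit keeps the strand, but the strand setting of the counting is not given in the sources used here. If strand was not used, reads from exons that overlap on opposite strands cannot be told apart.

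On chromosome 4, *Gm21541* (ENSMUSG00000094065.1, 41903610 to 41904743, plus strand) is a protein-coding copy of *Ccl21a* and *Ccl21b*. These encode a chemokine that guides lymphocytes and dendritic cells to lymph nodes. *Gm13303* (ENSMUSG00000082414.1, 42025429 to 42026712, minus strand) is an unprocessed pseudogene. *Gm37530* (ENSMUSG00000103694.1, 42034581 to 42039512, plus strand) is a model still to be experimentally checked, and it overlaps an exon of *Gm21093* on the opposite strand. *Gm13301* (ENSMUSG00000096862.1, 42216908 to 42235604, plus strand) is a transcribed unprocessed pseudogene that shares exon sequence with *Gm17167* on the same strand. *Gm2163* (ENSMUSG00000095779.1, 42466752 to 42589938, plus strand) is annotated as protein-coding.

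The transcripts were compared with all other transcripts of the annotation to see how much of each gene can be told from its copies. A copy was a transcript aligned at 95% identity or more over at least 200 bases. All 10 genes had at least 1 copy, in 20 other genes, of which 17 were in the count table, all on chromosome 4 or 14. The share of 31-base words found in no other gene was 0% for *Gm27222*, *Gm27221*, *Gm27177* and *Gm13303*. It was 1.09% for *Gm21451*, 2.86% for *Gm21541*, 6.33% for *Gm16867*, 6.83% for *Gm2163*, 12% for *Gm13301* and 19.1% for *Gm37530*.

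**Figure D1:**
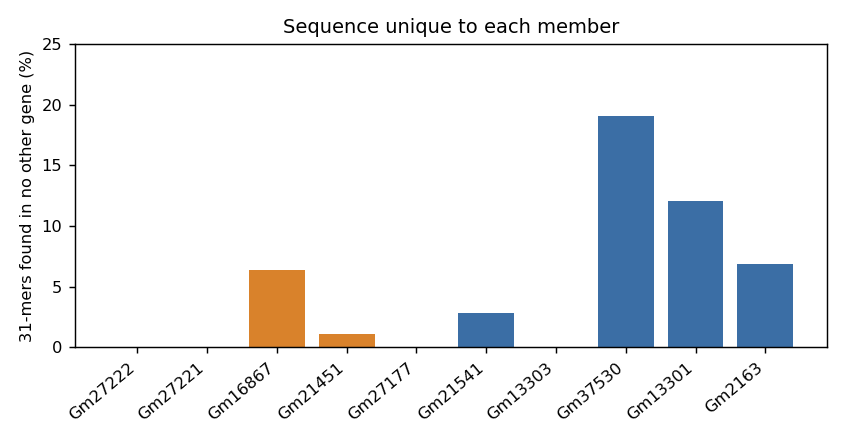
Bars give, for each of the 10 genes, the percentage of its 31-base words found in no other annotated gene (orange, chromosome 14, blue, chromosome 4). The highest is *Gm37530* at 19.1%, and 4 genes are at 0%.

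On chromosome 14, 2 members are joins of other transcripts, and the joins are shown because a read across the join fits neither of the joined transcripts alone. The 2775-base *Gm21451* transcript consists of 2348 bases identical to *Loxl2* followed by the whole 427-base *Gm27222* transcript. A 3191-base *Gm16867* transcript has 245 bases followed by the whole 2946-base *Gm27177* transcript. Both are printed 5′ to 3′ around the join, in the sense of the transcript, with the bases after the join in capitals. They span introns, at chr14:69471936-69477455 on the plus strand and chr14:69421940-69503041 on the minus strand of GRCm38.
Gm21451: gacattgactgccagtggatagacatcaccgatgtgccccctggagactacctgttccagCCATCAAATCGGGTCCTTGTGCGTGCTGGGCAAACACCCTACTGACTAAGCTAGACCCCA
Gm16867: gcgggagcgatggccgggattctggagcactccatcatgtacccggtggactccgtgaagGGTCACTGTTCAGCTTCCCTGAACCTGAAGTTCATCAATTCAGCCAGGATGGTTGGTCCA

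Further transcripts of this locus occur as identical pairs 218250 bases apart, or 218275 bases for the pair of *Gm16867* and *Gm27177* and that of *Gm38378*. *Gm27221* is identical over its 961 bases to *Gm27176*, which is not in the count table. The deposited counts of *Gm27221* were whole numbers in all 6 libraries.

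On chromosome 4, *Gm21541* is identical to *Ccl21b* over 402 bases and to *Gm13304* over 837 bases. The stretch of *Gm21541* printed below lies unchanged in *Gm13304*, *Ccl21b* and *Gm10591*. Its coding sequence was set beside that of *Ccl21a* because these 2 copies differ at few bases. The 870-base transcripts differ at 6 bases, of which 2 are in the 399 coding bases, and both are in capitals in the stretches chr4:41903749-41904080 (plus strand) and chr4:42773523-42773854 (minus strand), which span introns.
Gm21541: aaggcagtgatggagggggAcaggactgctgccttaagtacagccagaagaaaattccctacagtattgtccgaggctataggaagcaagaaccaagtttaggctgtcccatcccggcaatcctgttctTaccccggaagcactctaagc
Ccl21a: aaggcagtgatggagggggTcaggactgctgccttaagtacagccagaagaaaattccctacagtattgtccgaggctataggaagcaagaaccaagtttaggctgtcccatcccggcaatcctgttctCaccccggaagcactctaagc

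*Gm13303* differs from *Gm2163* at 1 of its 1284 bases, in capitals below, and lies whole and unchanged within *Gm3892*. The stretches are chr4:42026613-42026712 on the minus strand and chr4:42588030-42588129 on the plus strand.
Gm13303: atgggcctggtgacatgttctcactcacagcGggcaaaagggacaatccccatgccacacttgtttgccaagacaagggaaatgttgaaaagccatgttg
Gm2163: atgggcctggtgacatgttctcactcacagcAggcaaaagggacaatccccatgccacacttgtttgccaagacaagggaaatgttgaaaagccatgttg

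*Gm37530* is the most distinct of the 10 genes, aligned to *Gm21955* at 98.5% identity.

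The libraries held 39556784 to 65750131 estimated counts. Values are given as CPM (counts scaled to a common library size) after edgeR's TMM scaling, with SD over n = 3 libraries. The satellite cell markers summed to between 3526 and 5882 CPM in control and between 3675 and 4145 CPM in Gli3-cKO libraries. *Gli3* itself was counted at 11.2, 9.71 and 9.75 CPM in control and 9.54, 10.5 and 6.25 CPM in Gli3-cKO libraries, which overlap, and these counts include exons outside the deletion. The 4 Schwann cell markers summed to 68.2 to 99.9 CPM in control and 32.3 to 47.7 CPM in Gli3-cKO libraries, with no overlap for any of the 4, and their part in the results was not tested.

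All 5 chromosome 14 genes were higher in Gli3-cKO QSCs, and 4 of them were at or near 0 in control QSCs. On chromosome 4, *Gm13301* was higher and the other 4 genes were lower in Gli3-cKO QSCs. None of the 10 overlapped between genotypes, and all 10 passed the call that chose them (edgeR's quasi-likelihood test, with a Benjamini-Hochberg adjusted p below 0.05 and a change of 1.2-fold or more), which 0.351% of all genes passed, 0.187% upward and 0.163% downward. limma-voom called 5 of the 10, and 0.291% of all genes, and DESeq2 called all 10, and 1.53% of all genes. With edgeR, 8 to 9 of the 10 were called without any 1 control library, 8 without the first Gli3-cKO library, 6 without the second and 5 without the third. These counts show how the choice depends on the method and the libraries, and are no test of the members. Over all genes, 13.0% did not overlap between genotypes, 6.39% higher and 6.57% lower in Gli3-cKO. The median log2 ratio of group means was 6.27 for the chromosome 14 genes and -2.70 for the chromosome 4 genes. Genes absent from a group were taken at their bound, and 6.27 is the bound of *Gm27222*. Over all 25093 genes the median of edgeR's log2 fold change, another measure, was -0.031. As differences of mean log2(CPM + 1), the chromosome 14 genes ranged from 0.93 to 3.29 and the chromosome 4 genes from -4.14 to 3.49.

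**Figure D2:**
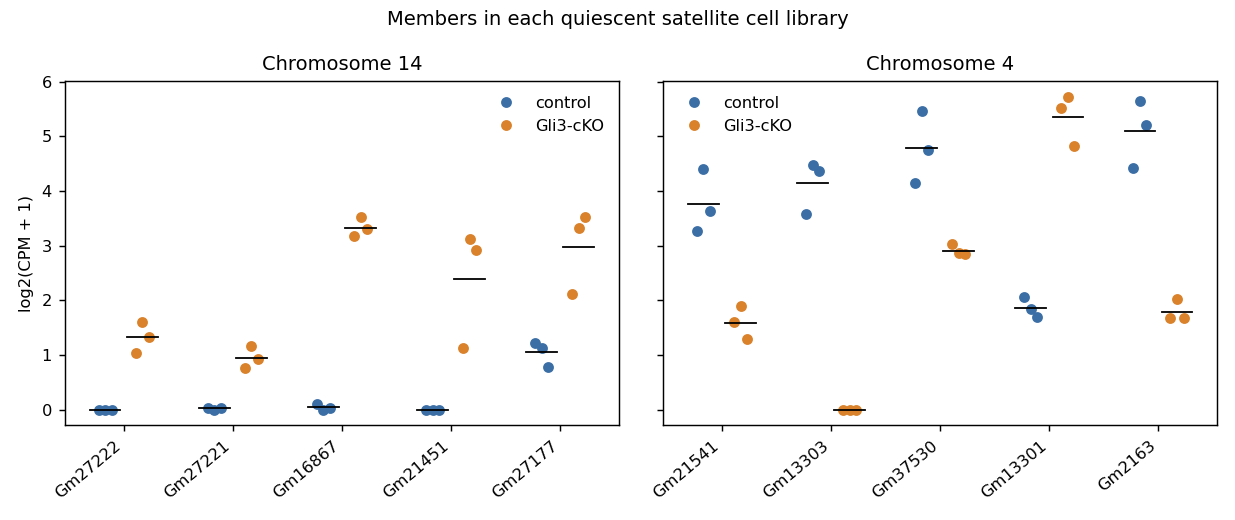
Each point is 1 QSC library, as log2(CPM + 1), for the 10 genes by chromosome (blue, control, orange, Gli3-cKO), and the black line is the mean of 3 libraries. The groups separate for every gene, upward in Gli3-cKO on chromosome 14 and for *Gm13301*, downward for the other 4 genes of chromosome 4.

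*Gm16867* was counted at 0.0745, 0 and 0.0232 CPM in control libraries and at 8.01, 10.5 and 8.87 CPM in Gli3-cKO libraries. Its means were 0.0326 ± 0.0381 CPM in control, from 4.11 counts over all 3 libraries, and 9.11 ± 1.24 CPM in Gli3-cKO. *Gm27177*, whose sequence is all shared with it, was at 1.34, 1.19 and 0.719 CPM in control and at 3.32, 9.0 and 10.4 CPM in Gli3-cKO libraries. The first Gli3-cKO library was the lowest of its group, and *Gm27177* was the only chromosome 14 gene counted above 1 CPM in any control library.

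*Gm21451*, the *Loxl2* and *Gm27222* join, was listed at 0 in every control library and at 1.18, 7.67 and 6.53 CPM in Gli3-cKO libraries. With a floor of 3 counts over the control group, its mean of 5.13 ± 3.46 CPM was at least 258-fold higher. The Gli3-cKO libraries differed by 6.48-fold among themselves, the widest spread of any of the 10 genes in a group with no library at 0. *Gm27222* was also listed at 0 in every control library, and at 1.05, 2.03 and 1.51 CPM in Gli3-cKO libraries, at least 77.0-fold higher. Every 31-base word of *Gm27222* lies in *Gm21451*, so these 2 genes are not separate measurements.

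*Gm27221*, the lowest of the chromosome 14 genes in Gli3-cKO libraries, was at 0.0248, 0 and 0.0232 CPM in control, from 2 counts in all, and at 0.687, 1.24 and 0.905 CPM in Gli3-cKO libraries. The 165 counts of the Gli3-cKO group were spread over all 3 libraries.

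On chromosome 4, *Gm2163* was at 20.5, 49.3 and 36.0 CPM in control and at 2.21, 3.06 and 2.18 CPM in Gli3-cKO libraries, 14.2-fold lower. *Gm13303*, which differs from it at 1 base, was at 11, 21.3 and 19.5 CPM in control and listed at 0 in all Gli3-cKO libraries. Against the floor of 3 counts over the Gli3-cKO group it was at least 980-fold lower. *Gm13301* went the other way, from 3.15, 2.59 and 2.23 CPM in control to 44.7, 52.0 and 27.5 CPM in Gli3-cKO libraries, 15.6-fold higher.

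*Gm37530* was at 16.7, 43.4 and 25.9 CPM in control and at 7.14, 6.27 and 6.18 CPM in Gli3-cKO libraries, 4.40-fold lower. *Gm21541*, a *Ccl21* copy, was at 8.62, 20.2 and 11.4 CPM in control and at 2.02, 2.70 and 1.46 CPM in Gli3-cKO libraries, 6.51-fold lower. The second control library was the highest of the control group for all 4 genes that were lower in Gli3-cKO.

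Because the copies share reads, the summed level of each set of copies was compared beside its members. *Gm13301*, *Gm13303* and *Gm2163* form 1 set with 11 other genes of the table. The set summed to 125, 280 and 206 CPM in control and to 206, 249 and 111 CPM in Gli3-cKO libraries, which overlap. The means were 204 ± 77.4 and 189 ± 70.4 CPM. Within the set, *Gm2163* made up 16.4%, 17.6% and 17.4% of the control sums and 1.07%, 1.23% and 1.96% of the Gli3-cKO sums. *Gm13301* made up 2.52%, 0.927% and 1.08% of the control sums and 21.7%, 20.9% and 24.6% of the Gli3-cKO sums. The shares of these genes did not overlap between genotypes, while the sum varied more among the libraries of either group than between the group means.

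**Figure D3:**
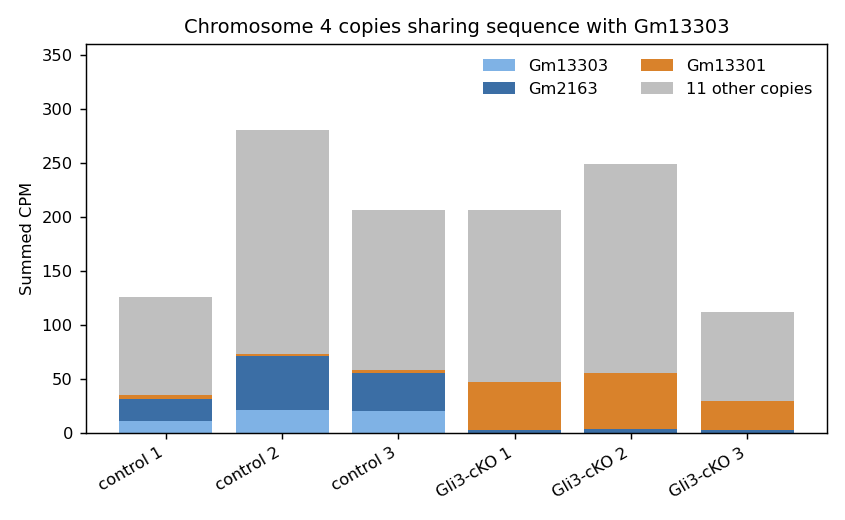
Stacked bars give the summed CPM of *Gm13303*, *Gm2163*, *Gm13301* and their 11 other copies in each of the 6 QSC libraries. The totals overlap between genotypes (111 to 280 CPM), while *Gm2163* and *Gm13303* fill most of the members' part in control and *Gm13301* in Gli3-cKO libraries.

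Of the 11 other genes of this set, those inside the interval could have been chosen as members, so their differences are given with no test. *Gm17167*, which shares 1314 bases with *Gm13301* at full identity, was at 12.3, 29.0 and 20.9 CPM in control and at 54.0, 67.7 and 26.4 CPM in Gli3-cKO libraries, and the groups overlapped. *Gm3893* was at 9.07 ± 5.28 CPM in control and 0.975 ± 1.69 CPM in Gli3-cKO libraries, and *Gm21093* at 6.58 ± 2.10 and 0.706 ± 1.22 CPM, both without overlap. For *Gm3893* this was narrow, with the lowest control library at 2.98 CPM and the highest Gli3-cKO library at 2.92 CPM. *Gm10600* was at 31.4 CPM in control and 35.9 CPM in Gli3-cKO libraries, with overlap. Outside the interval, *Gm12394* was at 9.82 ± 3.87 CPM in control and 2.67 ± 0.794 CPM in Gli3-cKO libraries (adjusted p = 0.0754 from edgeR, 1.18e-05 from DESeq2). *Gm13302*, also outside it, was at 11 ± 3.98 CPM in control and 2.99 ± 1.52 CPM in Gli3-cKO libraries (adjusted p = 0.150 from edgeR, 0.000297 from DESeq2). Both *Gm12394* and *Gm13302* share sequence with members, so they are not separate measurements.

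*Gm37530* and its copy *Gm21955* summed to 140 ± 65.9 CPM in control and 137 ± 40.1 CPM in Gli3-cKO libraries. *Gm21955* alone was at 111 ± 52.5 and 130 ± 39.6 CPM, with overlap (adjusted p = 0.948 from edgeR). The share of *Gm37530* in this sum was 19.1% to 22.1% in control and 3.95% to 6.13% in Gli3-cKO libraries.

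The sum of the *Ccl21* copies was lower in Gli3-cKO libraries, without overlap, but it contains *Gm21541*, which was chosen for its difference. *Gm21541*, *Ccl21a*, *Ccl21b* and *Gm13304* summed to 11.1, 25.5 and 15.7 CPM in control and to 2.52, 3.64 and 3.95 CPM in Gli3-cKO libraries. *Gm21541* made up 77.3%, 79.1% and 72.8% of the control sums and 80.3%, 74.2% and 36.8% of the Gli3-cKO sums. The other copies, which share its sequence, summed to 4.04 ± 1.41 CPM in control and 1.31 ± 1.05 CPM in Gli3-cKO libraries. They were narrowly without overlap, with the lowest control library at 2.53 CPM and the highest Gli3-cKO library at 2.50 CPM. *Gm13304* was listed at 0 in all 6 libraries. *Ccl21b* was at 3.11 CPM in control and 0.534 CPM in Gli3-cKO libraries (adjusted p = 0.564 from edgeR), and *Ccl21a* at 0.929 and 0.778 CPM (adjusted p = 0.986 from edgeR). The sort kept cells negative for CD31, a marker of endothelial cells. The 4 endothelial markers summed to 150 to 208 CPM in control and 131 to 161 CPM in Gli3-cKO libraries, which overlap, and their part in this difference was not tested.

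On chromosome 14, *Gm16867* and *Gm27177* with *Slc25a37*, which shares 382 bases with *Gm16867*, summed to 64.6 ± 4.50 CPM in control and 67.4 ± 6.29 CPM in Gli3-cKO libraries. *Slc25a37* alone was at 66.9, 58.5 and 65.2 CPM in control and at 50.4, 54.7 and 47.0 CPM in Gli3-cKO libraries, without overlap, and was not called (log2 fold change -0.33 ± 0.13, SE, adjusted p = 0.643 from edgeR). *Loxl2*, which shares most of *Gm21451*, was at 83.3, 67.9 and 169 CPM in control and at 160, 189 and 128 CPM in Gli3-cKO libraries. These values overlap (adjusted p = 0.809 from edgeR).

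The 5 chromosome 14 genes together summed to 1.13 ± 0.341 CPM in control and 24.3 ± 8.77 CPM in Gli3-cKO libraries, with no overlap. The 5 chromosome 4 genes summed to 97.3 ± 38.4 and 52.5 ± 13.8 CPM, and these groups overlapped. With their copies added, the sums were 171 ± 56.5 and 234 ± 35.9 CPM for chromosome 14, and 361 ± 150 and 329 ± 76.9 CPM for chromosome 4, and both pairs overlapped.

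The other genes around the loci were read from the fit of all genes. Of the 26 further genes of the table inside the intervals, 17 are predicted genes, which a call by edgeR could have made members, so that calls among them are no test. In this group edgeR called 0 and DESeq2 called 5, and 15 had an unadjusted p under 0.05 from edgeR. The 107 genes within 1 Mb on either side do not include *Gm27222*, which starts before the interval and was still made a member. They hold 22 predicted genes and some copies of members, so their calls are not free of the choice. Of the 107, edgeR called 0, beside 0.351% of all genes, and DESeq2 called 9, beside 1.53% of all genes. At an unadjusted p under 0.05 from edgeR there were 18 flank genes, or 16.8%, beside 7.11% of all genes.

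**Figure D4:**
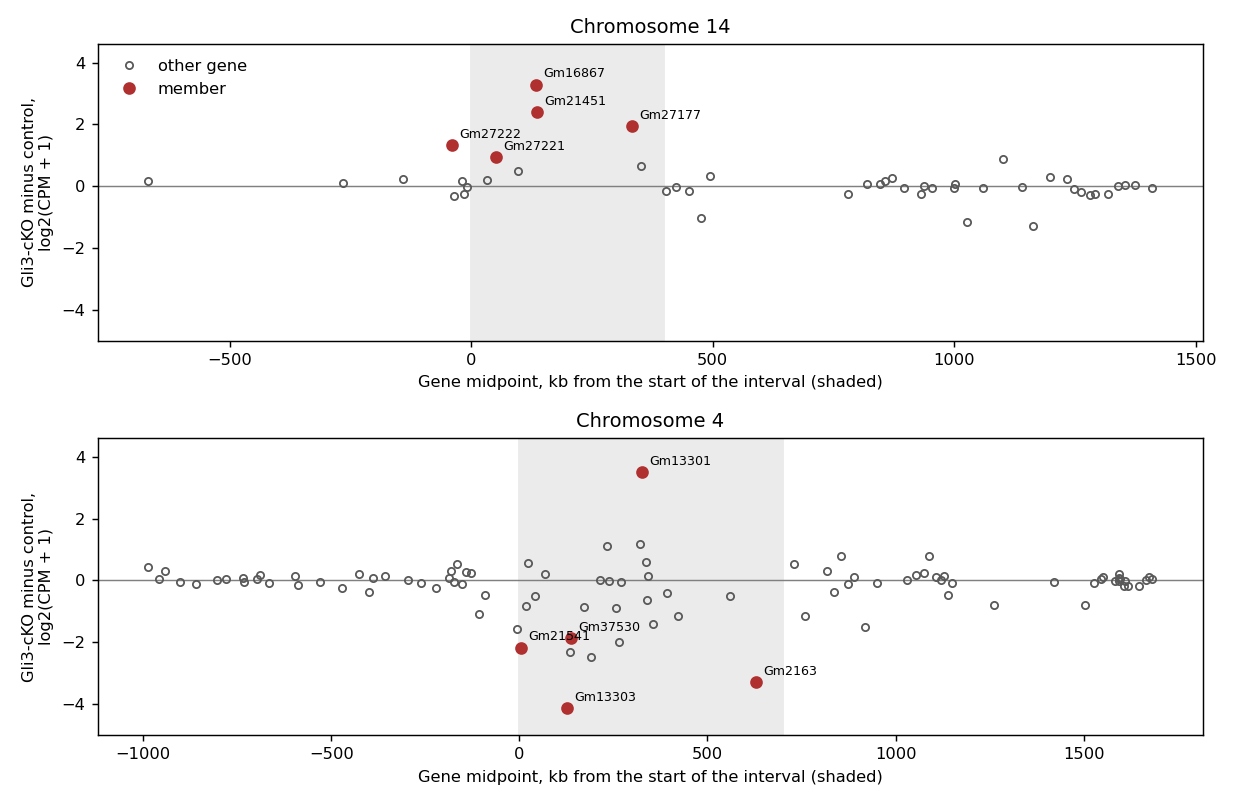
Points are genes of the table, placed by the distance of their midpoint from the start of each interval (shaded) in kb, with the difference of mean log2(CPM + 1), Gli3-cKO minus control, on the vertical axis (red, members, open, other genes). Flank genes other than the member *Gm27222* lie between -1.30 and 0.87 on chromosome 14 and between -1.59 and 0.77 on chromosome 4, and *Gm13301* is at 3.49.

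The protein-coding neighbour *Entpd4* was at 38.3, 36.8 and 31.3 CPM in control and at 55.0, 85.7 and 74.2 CPM in Gli3-cKO libraries. Its groups did not overlap, with a log2 fold change of 1.01 ± 0.18 (SE, adjusted p = 0.0754 from edgeR, 0.00017 from DESeq2). Transcripts of *Entpd4*, of up to 3589 bases, are identical to transcripts of *Entpd4b*, 218250 bases away. *Entpd4b* is not in the count table, and reads of these transcripts cannot be told apart. *Gm13305*, the predicted gene just outside the threshold, was at 37.7, 70.6 and 58.9 CPM in control and at 19, 7.39 and 14.4 CPM in Gli3-cKO libraries. *Gm27177*, at 1.08 and 7.59 CPM, was the member nearest to the threshold on its inner side.

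Of the 12 nearest protein-coding neighbours with a mean of at least 1 CPM, 3 on each side of each interval, edgeR called 0. *Chmp7*, a subunit of the membrane-remodelling ESCRT-III machinery, was at 69.0 ± 4.01 and 67.6 ± 6.63 CPM (adjusted p = 0.994 from edgeR). *Il11ra1*, the receptor of interleukin 11, was at 153 ± 34.9 and 220 ± 28 CPM (adjusted p = 0.535 from edgeR). *Tnfrsf10b*, a death receptor, was at 14.5 ± 8.05 and 5.93 ± 1.28 CPM (adjusted p = 0.390 from edgeR, 0.0372 from DESeq2).

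Farther out on chromosome 4, and chosen after their values were seen, *Unc13b*, which primes synaptic vesicles, was at 18.9, 19.7 and 20.2 CPM in control and at 10.6, 11 and 11 CPM in Gli3-cKO libraries. Its adjusted p was 0.0531 from edgeR and 5.46e-06 from DESeq2. *Vcp* was at 204, 186 and 254 CPM in control and at 370, 363 and 362 CPM in Gli3-cKO libraries. It encodes an ATPase that extracts proteins for degradation, and its adjusted p was 0.101 from edgeR and 0.000605 from DESeq2. Both were among the 9 flank genes that DESeq2 called, 7 on chromosome 4 and 2 on chromosome 14.

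The genes most like *Gm16867*, which had the highest mean of the chromosome 14 members over all 6 libraries, were *C1qtnf12*, *Nnmt*, *Ano1*, *Gm7658* and *Galnt2*, with Pearson's r of log2(CPM + 1) between 0.995 and 0.996. Those most like *Gm13301*, chosen in the same way on chromosome 4, were *Xlr3a*, *Rps15a-ps8*, *Gm7658*, *Ano1* and *Rps13-ps1*, with r between 0.993 and 0.998. These were the highest of 14688 genes and the 6 libraries fall into 2 groups by genotype, so the points are not independent of that split. *Gm7658* and *Ano1* were on both lists.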

How the data were processed

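Sorted satellite cells were sequenced in 12 libraries. For the polyadenylated RNA of the 6 QSC libraries, the authors deposited estimated counts per gene, made with salmon on GRCm38 transcripts and summed with tximport, without normalization. Their tables of their own comparisons, 4 in all, hold fold changes and p-values that were not used. The mean normalized count in them, a signal deposited by the authors over all libraries, supports no value printed here. A further 6 columns of the count table matched no sample label and were not used, so the planned comparison of activated cells was not run.

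Estimated counts were rounded (45.3% to 51.0% of values per library were not whole). edgeR 4.0.16 in R 4.3.3 (TMM, quasi-likelihood test, Benjamini-Hochberg adjustment) compared 3 libraries with 3. Nothing in the labels shows that libraries of 1 group came from separate sorts, so p-values measure the spread between these libraries. DESeq2 1.42.0 and limma 3.58.1 were alternatives. Tests on simulated counts, with 200 of 25093 genes changed, recovered 91% of 4-fold and 46% of 2-fold changes with edgeR. All changed genes had a mean of at least 1 CPM, so recovery at lower levels was not measured. Among the unchanged genes, edgeR called 18, DESeq2 50 and limma-voom 5. Transcripts of GENCODE vM21 were aligned on the same strand with blastn 2.17.0. Of the table's genes, 25080 were in vM21. The sequence of 1 pair of copies is not reported here. The floor of 3 counts covers counting error only.

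Members and lists were chosen with earlier results of these data known. The named genes were the members, other genes inside the intervals with a mean of at least 1 CPM or a call, the 3 nearest protein-coding genes on each side, the copies, 5 genes per locus by likeness, and *Gli3*. Added to these were *Unc13b* and *Vcp*, chosen after their values were seen.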

Additional observations from a re-analysis of the deposited data

How the results depend on the processing

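All 10 members kept their direction under every alternative that gave a value. A minimum of 10 counts in every library left 5 of them with a value, and over all genes it left 48 calls in place of 88. Of 125 alternative values of single members, 93 moved by less than the spread between replicates and 32 by more, and 0 changed sign. DESeq2 called 384 genes, and the range on leaving out each library was 58 to 103, with 58 without the third Gli3-cKO library. The members called fell from 10 to 5 with limma-voom, which called 73 genes in all, and to 5 without the third and 6 without the second Gli3-cKO library.

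Among the neighbours of both loci, DESeq2 called 14, limma-voom 2 (*Vcp* and *Unc13b*) and filterByExpr 1 (*Unc13b*), in place of 0, and 0 to 2 were called on leaving out a library. In the flanks alone these counts were 9, 2 and 1, and 0 to 1 on leaving out a library. Without the first control library *Gm13305* and *Gm12394* were called, without the third *Vcp*, without the first Gli3-cKO library *Entpd4* and *Gm21093*, and without the second *Gm3893*. The cause was not tested.

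The log2 difference of the chromosome 14 sum was 3.51, and 0.73 over all genes of the interval and 0.48 with the copies, which by construction add genes that changed less. That of chromosome 4 was -0.84, and -0.072 with the copies. On leaving out each library they ranged from 3.32 to 3.84 and from -1.14 to -0.55. The direction of neighbours near 0 turned on leaving out a library, over -0.26 to 0.77 for *4930578G10Rik*, -1.37 to 0.66 for *Ccl21a*, -0.11 to 0.018 for *Chmp7*, -0.22 to 0.64 for *Fam205a4*, -0.22 to 0.51 for *Gm10600*, -0.074 to 0.63 for *Gm21955* and -0.21 to 0.13 for *Synb*.

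The groups share replicate numbers, but same-numbered libraries did not deviate together (correlations -0.28, -0.02 and -0.064). Correlations of differently numbered libraries ranged from -0.24 to 0.33. With 3 libraries per group, such values cannot show whether any libraries shared a sort. With the replicate block 79 genes and 7 of the 10 members were called, and 0 neighbours.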
